A study of Homo sapiens with 2 samples.

Results

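The genes described here encode the surface ligands by which a tumour cell is seen by natural killer (NK) cells through the receptors NKG2D and DNAM-1, together with PD-L1, the ligand of the T cell checkpoint receptor PD-1. They were chosen by name: MICA, MICB, ULBP1, ULBP2, ULBP3, RAET1E, RAET1G, RAET1L, PVR and CD274, 10 of the 20235 genes named on the array, read by 12 of its 33297 probe sets. The tested cells were AGS, an established cell line of human gastric adenocarcinoma origin, given 100 nM LBH589 for 24 h. LBH589 is panobinostat, a drug that blocks histone deacetylases of several classes. The control was AGS cells titled as control treated and labelled as given no treatment, with no vehicle, dose or culture time stated. With 1 array for either condition, none of the differences could be tested or given an error. A gene was called higher or lower where the intensities differed by 2-fold or more.

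NKG2D is an activating receptor of NK cells and of cytotoxic T cells. Its ligands are relatives of MHC class I that healthy epithelium shows little of and that stress, infection or transformation can bring to the surface. MICA and MICB lie beside the class I genes and have a transmembrane anchor, whereas the ULBP and RAET1 genes form a cluster of their own on the same chromosome, some anchored by a lipid tail. PVR (CD155) activates NK cells through DNAM-1 (CD226) and restrains them through TIGIT. PD-L1, the product of CD274, restrains T cells and is induced by interferon gamma.

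All values are deposited intensities on a linear scale. An intensity of 4.36, the level below which 95% of values from 450 olfactory receptor probe sets lay, is called background, since AGS cells are not thought to use those genes. It was reached by 53.2% of probe sets with LBH589 and by 53.7% in control cells, and the median intensity was 4.77 with LBH589 and 4.84 in control cells. The epithelial markers KRT8 (2292 with LBH589 and 1967 in control cells), KRT18 (632 with LBH589 and 634 in control cells) and EPCAM (337 with LBH589 and 577 in control cells) were far above background, and CDH1 was low on both arrays (9.72 with LBH589 and 11.4 in control cells). The epithelial marker KRT19 had 1171 with LBH589 and 566 in control cells, 2.07-fold higher, and so passed the size counted as a change. Of 18 receptors of these ligands and markers of NK and T cells, 5 reached background on either array, and the 12 that passed a detection floor (2.95 on at least 1 array, percentile 20 of all intensities) had intensities of up to 7.35 with LBH589 and up to 7.86 in control cells. The leukocyte marker PTPRC and the NK genes KLRD1, KLRC1 and KLRF1 stayed below that floor on both arrays.

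The ligands went different ways. After LBH589, ULBP3 and MICA were higher by 2-fold or more, PVR was lower by as much or more, and the ratios of 7 genes lay within 2-fold. Over all 18769 genes that passed the detection floor, 4.90% were 2-fold higher and 4.86% were 2-fold lower, or 6.83% and 6.78% of the 13447 genes at or above background on at least 1 array. The median log2 ratio of the 10 genes was 0.13, where a positive value means higher with LBH589, beside 0.00 over all genes. That median fell midway between RAET1E (-0.02) and CD274 (0.28), which both had values below background, so it rests on dim readings. All 10 passed the floor, but ULBP1 and RAET1E were below background on both arrays, and CD274 was below it in control cells. Those genes are counted among the 7 but have no call.

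**Figure D1:**
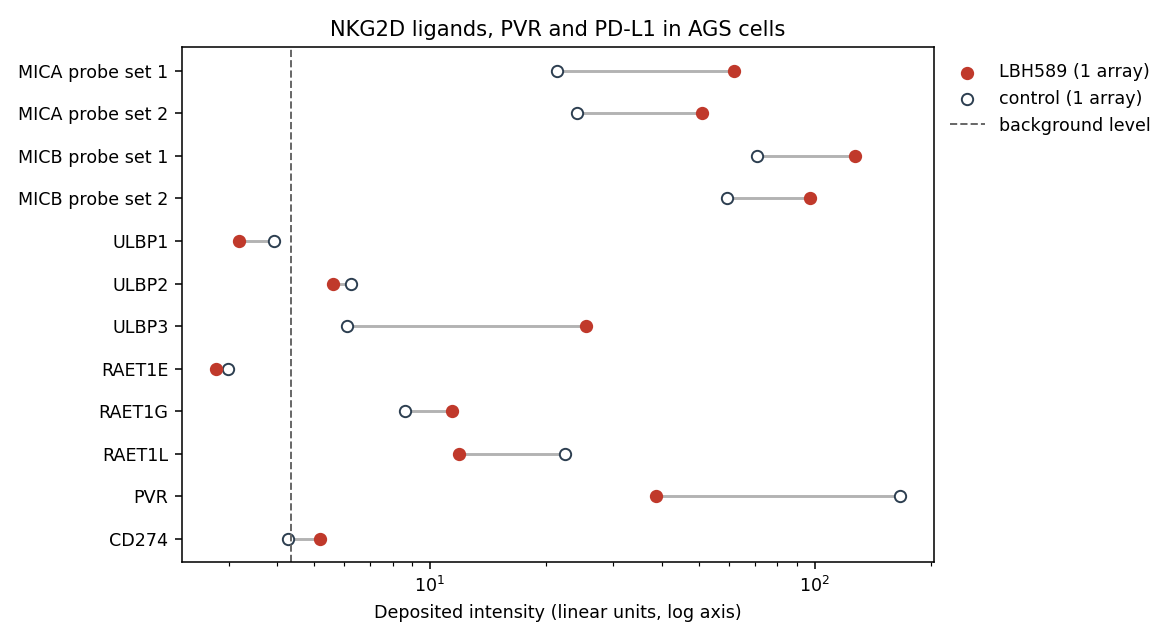
Intensity of each of the 12 ligand probe sets on the LBH589 array (filled circles) and the control array (open circles), on a log axis; the dashed line is background, 4.36, and there is 1 array per condition. Both MICA probe sets and ULBP3 lie to the right of their control values, PVR lies well to the left, and ULBP1 and RAET1E stay under background.

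The stretches of 250 bases before the transcription start sites are shown for the 3 genes beyond 2-fold and for MICB, whose window is closely similar to that of MICA. They are from RefSeq (GRCh38.p14), which had a window for all 10 genes. Capitals mark matches, on either strand, to GAANNTTC, the core of a heat shock element, and to CCAAT in MICA and MICB, and to GGGCGG, a GC box that factors of the SP family bind, in ULBP3. In PVR the search found no match to any of the motifs. The windows are chr6:31403345-31403594 (plus strand) for MICA, chr6:31497895-31498144 (plus strand) for MICB, chr6:150069122-150069371 (minus strand) for ULBP3 and chr19:44643660-44643909 (plus strand) for PVR.
MICA: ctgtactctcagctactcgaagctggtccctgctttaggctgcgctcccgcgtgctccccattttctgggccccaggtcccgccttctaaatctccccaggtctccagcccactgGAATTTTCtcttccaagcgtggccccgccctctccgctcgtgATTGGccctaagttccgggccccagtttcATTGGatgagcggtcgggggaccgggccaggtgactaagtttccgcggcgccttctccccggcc
MICB: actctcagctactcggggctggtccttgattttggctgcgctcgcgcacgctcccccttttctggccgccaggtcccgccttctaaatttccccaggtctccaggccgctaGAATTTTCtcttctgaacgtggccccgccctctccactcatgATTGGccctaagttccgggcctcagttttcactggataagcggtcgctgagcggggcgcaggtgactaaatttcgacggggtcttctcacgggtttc
ULBP3: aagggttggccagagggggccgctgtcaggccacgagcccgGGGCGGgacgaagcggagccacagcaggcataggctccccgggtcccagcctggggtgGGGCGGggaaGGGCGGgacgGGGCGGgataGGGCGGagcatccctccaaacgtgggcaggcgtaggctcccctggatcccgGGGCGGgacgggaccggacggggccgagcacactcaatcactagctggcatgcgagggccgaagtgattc
PVR: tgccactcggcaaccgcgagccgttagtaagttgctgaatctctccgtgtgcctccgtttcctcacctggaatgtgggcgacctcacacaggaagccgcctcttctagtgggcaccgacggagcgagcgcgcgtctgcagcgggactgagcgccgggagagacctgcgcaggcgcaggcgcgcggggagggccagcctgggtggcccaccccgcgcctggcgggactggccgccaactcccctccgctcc

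The windows of MICA and MICB were identical at 210 of 254 aligned positions (82.7%). Each held the same heat shock core, GAATTTTC, whose first base lay at -135 in MICA and -139 in MICB, counted from the start site. A match to GAANNTTC was present in 5.78% of 35116 windows of this length over all genes, and in no other of the ligand windows. The GC box occurred 6 times in ULBP3, whose window was 72.0% G and C, once each in MICA and MICB, where it is not capitalised, 2 times in ULBP1 and once each in ULBP2, RAET1G and CD274. It was thus present in 7 of the 10 genes and in 42.6% of all windows. Of those 7, ULBP3 and MICA passed 2-fold, MICB, ULBP2 and RAET1G lay within it, and ULBP1 and CD274 were too dim for a call. Over all genes at or above background, 6.83% were 2-fold higher and 6.78% lower, and nothing about the GC box is claimed from so few genes. CCAAT was found in MICA, MICB, ULBP2, RAET1G and RAET1E, and in 32.0% of all windows. The other motifs searched were TGACG (the core of the cAMP response element, 21.2% of windows), TTCNNNGAA (a GAS element, 6.57%) and AAANNGAAA (an interferon response element, 9.20%). TGACG occurred 3 times in each of ULBP1 and ULBP2. The CD274 window had 1 match to TTCNNNGAA and 3 to AAANNGAAA, some of them overlapping. RefSeq gave 3 windows for RAET1E, of which 1 also had a match to TTCNNNGAA, and 1 for each other gene. A match is a description of letters and not evidence of binding.

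Among the NKG2D ligands, MICA had 61.6 with LBH589 and 21.4 in control cells, 2.87-fold higher. Its other probe set had 51.0 with LBH589 and 24.1 in control cells, 2.12-fold higher. Both probe sets of MICA thus passed 2-fold, although not by the same amount. Whether probe sets of the same gene share probes was not tested, so they may not be independent readings. For scale, 415 genes, MICA among them, were read above background by a pair of distinct probe sets. The log2 ratios of a pair lay a median of 0.14 apart, with percentile 95 at 1.05. Those of MICA were 1.52 and 1.08. Of the genes at or above background, 2.28% were as far or further above control than MICA.

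MICB, the close relative of MICA, had 127 with LBH589 and 70.6 in control cells. By its other probe set it had 97.4 with LBH589 and 59.1 in control cells. These are ratios of 1.80-fold and 1.65-fold, short of the size counted as a change. The MIC genes are similar in sequence, and how far their probes tell them apart was not tested.

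ULBP3, a ligand with a lipid anchor, had 25.5 with LBH589 and 6.08 in control cells. It was 4.19-fold higher, a distance above control that 0.781% of genes at or above background reached. Its control intensity was close to background, and the size of its ratio rested on how dim signals were treated. RAET1L (ULBP6) had 11.9 with LBH589 and 22.5 in control cells, a ratio of 1.89-fold towards lower that did not reach 2-fold. RAET1G (ULBP5) had 11.4 with LBH589 and 8.61 in control cells. ULBP2 had 5.61 with LBH589 and 6.23 in control cells. Of the 6 genes of this cluster, ULBP3 alone passed 2-fold. The genes are related in sequence, and how far their probes tell them apart was not tested. ULBP1 (3.19 with LBH589 and 3.94 in control cells) and RAET1E, also called ULBP4 (2.79 with LBH589 and 2.99 in control cells), were not above background on either array, so neither has a measured change.

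PVR had 38.6 with LBH589 and 167 in control cells, 4.31-fold lower. Both values were well above background, and 0.989% of the genes at or above background were as far or further below control. PVR has 1 probe set, so no second reading was at hand. CD274 had 5.17 with LBH589 and 4.27 in control cells. Its control value was below background and its LBH589 value barely above it, so the data give at least 1.19-fold and no call. PD-L1 mRNA was thus near the limit of the array in both conditions.

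**Figure D2:**
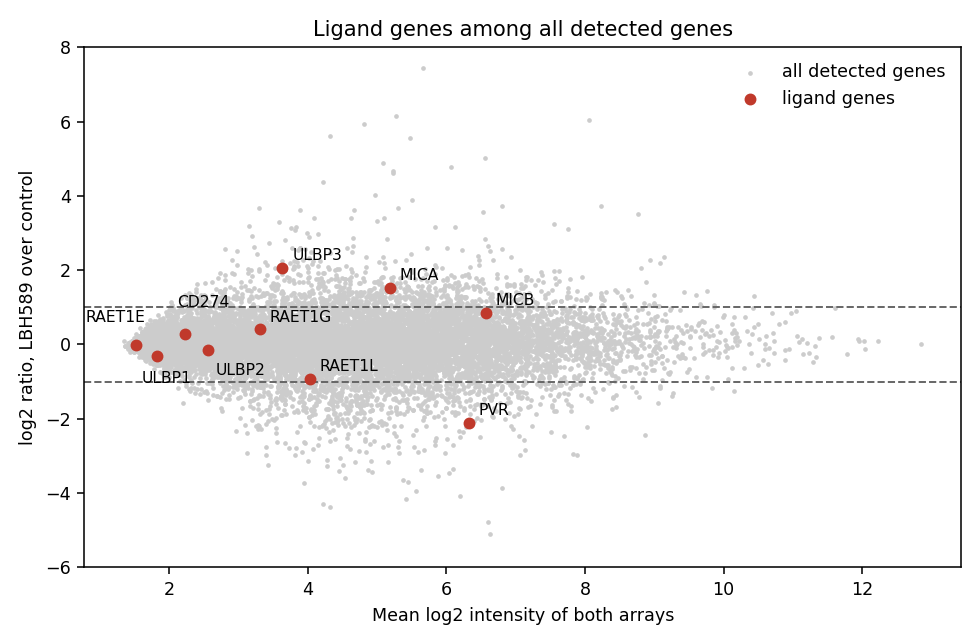
The log2 ratio of LBH589 over control (vertical axis) against the mean log2 intensity of both arrays (horizontal axis) for 18769 genes (grey) and the 10 ligand genes (red, named); dashed lines mark 2-fold. ULBP3 (2.07) and MICA (1.52) lie above the upper line and PVR (-2.11) below the lower one, with RAET1L (-0.92) and MICB (0.85) just inside.

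Genes next to the ligands on their chromosomes were compared with them, 5 measured protein-coding genes on either side of each locus in RefSeq order. None of the 10 neighbours of MICA and MICB on chromosome 6 passed 2-fold, and their median log2 ratio was -0.17. The flanking genes were the class I gene HLA-B, with 602 with LBH589 and 434 in control cells, and MCCD1, with 4.21 with LBH589 and 5.50 in control cells. Among the 10 neighbours of the ULBP and RAET1 cluster, 2 were lower and none higher. These were PLEKHG1, with 7.93 with LBH589 and 20.1 in control cells (2.53-fold lower), and MTHFD1L, a mitochondrial folate enzyme, with 17.4 with LBH589 and 38.1 in control cells (2.19-fold lower). None of the 9 detected neighbours of PVR on chromosome 19 passed 2-fold, and neither did any of the 8 detected neighbours of CD274 on chromosome 9. Background was reached by 8 neighbours of MICA and MICB, 7 of the ULBP and RAET1 cluster, 8 of PVR and 4 of CD274. Of all genes at or above background, 6.83% were 2-fold higher and 6.78% lower. Nothing particular to a locus is claimed from the counts. PDCD1LG2, which encodes PD-L2 and lies next to CD274, was below background on both arrays (2.84 with LBH589 and 3.74 in control cells).

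**Figure D3:**
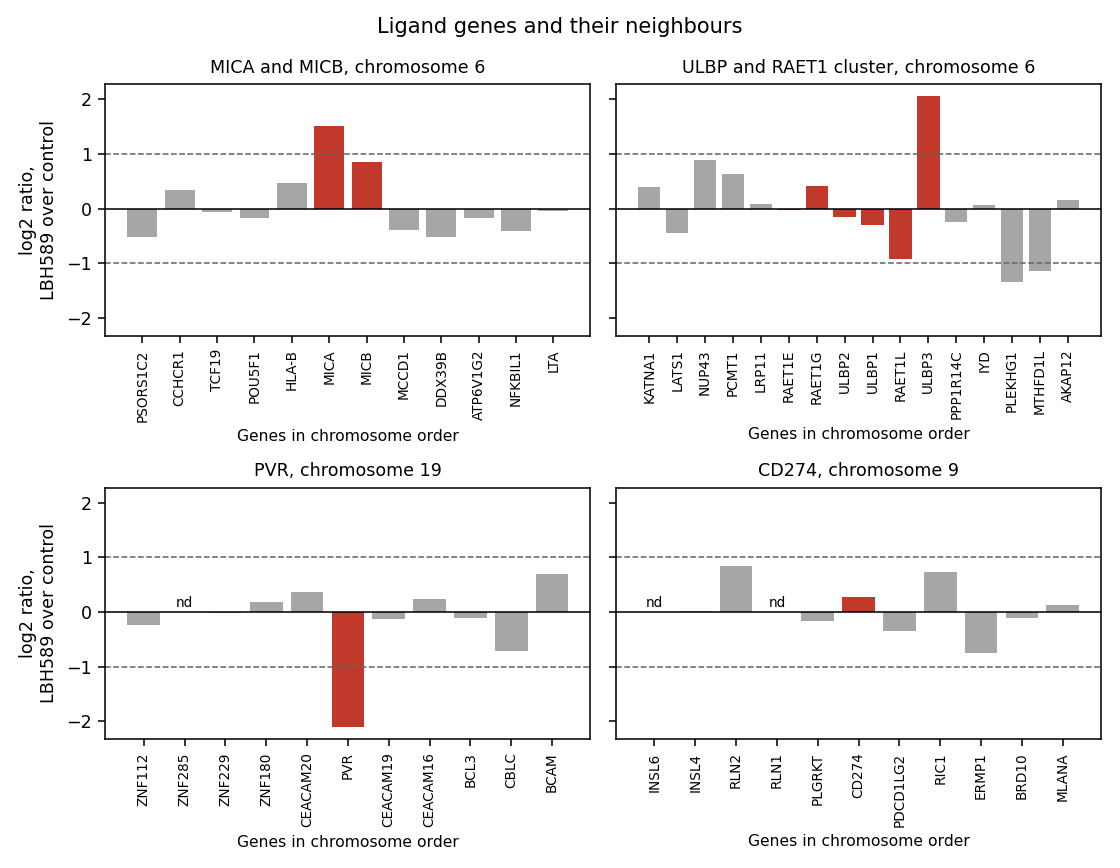
The log2 ratio of LBH589 over control for the ligand genes (red) and 5 measured protein-coding neighbours on either side (grey), in chromosome order, for each of the 4 loci; dashed lines mark 2-fold and nd marks a gene below the detection floor. MICA, ULBP3 and PVR pass the lines, and of the neighbours PLEKHG1 and MTHFD1L do so, both lower.

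PVR belongs to the nectin family. Of 5 genes, the nectins and CADM1 (a ligand of the receptor CRTAM), 1 was higher and none was lower, with a median log2 ratio of 0.64. Of all genes at or above background, 6.83% were 2-fold higher and 6.78% lower, so these counts say little about the family. NECTIN4, with 5.06 with LBH589 and 4.15 in control cells, was below background in the latter. NECTIN3, which can bind PVR, had 23.8 with LBH589 and 10.9 in control cells, 2.19-fold higher. Its log2 ratio of 1.13 fell short of 2-fold with 16 added to each intensity (0.57), with 50 added (0.28) and with a floor of 16 (0.58). NECTIN2, the other ligand of DNAM-1, had 73.1 with LBH589 and 67.7 in control cells. Other ligands and adhesion partners of activating NK receptors gave no call in either direction among 6 detected. The one furthest from 0 was CD58, the ligand of CD2, with 10.2 with LBH589 and 16.2 in control cells. Of 7 ligands of inhibitory NK receptors detected, 1 was lower, the adhesion molecule CEACAM1, with 17.8 with LBH589 and 46.3 in control cells (2.60-fold). HLA-E, which engages the inhibitory receptor NKG2A, had 232 with LBH589 and 191 in control cells. Among 8 other B7 family and checkpoint ligands detected, 1 was lower, CD276 (B7-H3), with 24.8 with LBH589 and 51.8 in control cells (2.09-fold).

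Enzymes that release these ligands from the cell surface were measured with them, since MIC and ULBP proteins and PD-L1 can be shed. Of 7, 2 were lower and none higher, beside 6.78% lower and 6.83% higher of all genes at or above background. The median log2 ratio, -0.34, was that of MMP9 (3.23 with LBH589 and 4.10 in control cells), which was below background on both arrays. MMP2 (4.23 with LBH589 and 3.20 in control cells) was also below background on both, and the other 5 reached it. The membrane metalloproteinase MMP14, which can cleave MICA, had 12.2 with LBH589 and 158 in control cells, 13.0-fold lower. ADAM9 had 607 with LBH589 and 1372 in control cells, 2.26-fold lower. ADAM10, ADAM17 and the disulfide isomerase PDIA6, which takes part in the release of MICA, had log2 ratios of 0.22, 0.32 and -0.41. Surface or shed protein was not measured.

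A list of 20 genes held factors reported to act on transcripts of NKG2D ligands, together with the heat shock genes HSPA1A and HSPA1B. Of these 20, 4 were higher and 3 were lower, with a median log2 ratio of -0.06. The higher ones were the heat shock genes HSPA1A (406 with LBH589 and 119 in control cells, 3.42-fold) and HSPA1B (301 with LBH589 and 94.5 in control cells, 3.18-fold), HDAC3 (210 with LBH589 and 69.2 in control cells, 3.03-fold), a deacetylase, and the transcription factor STAT3 (485 with LBH589 and 187 in control cells, 2.60-fold). HSPA1A and HSPA1B are near-identical, and their probes may not tell them apart, so their calls may be a single reading. HSF1, the heat shock transcription factor, had 18.8 with LBH589 and 27.5 in control cells. The lower ones were MYC (37.9 with LBH589 and 99.0 in control cells, 2.61-fold), the checkpoint kinase CHEK1 (30.2 with LBH589 and 66.4 in control cells, 2.20-fold) and IGF2BP3, an RNA-binding protein, which had 3.75 with LBH589 and 8.98 in control cells (at least 2.06-fold). The kinases ATM and ATR, which signal DNA damage, had log2 ratios of 0.17 and 0.02.

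Of 17 factors reported to act on PD-L1, some of them in the list above, 1 was higher and 4 were lower, with a median log2 ratio of -0.01. The higher one was STAT3, given above. Besides MYC, the lower ones were the NF-kB subunit NFKB1 (8.66 with LBH589 and 39.7 in control cells, 4.59-fold), the interferon gamma receptor chain IFNGR2 (10.2 with LBH589 and 45.7 in control cells, 4.46-fold) and CMTM4, which stabilises PD-L1 protein (16.4 with LBH589 and 47.3 in control cells, 2.88-fold). CMTM6, the main partner of PD-L1 at the membrane, had 107 with LBH589 and 117 in control cells. IRF1, a direct activator of CD274, had 6.45 with LBH589 and 8.31 in control cells. Short of 2-fold, SPOP (1.97-fold), JAK1 (1.93-fold) and RELA (1.56-fold) were higher with LBH589, and IRF2 (1.63-fold) was lower. The counts in these lists are to be read beside the 4.90% of all detected genes that were higher and the 4.86% that were lower. For genes at or above background the shares were 6.83% and 6.78%. All 20 genes listed for NKG2D ligands and all 17 factors for PD-L1 were among the latter genes. Nothing particular to a list is claimed from the counts.

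**Figure D4:**
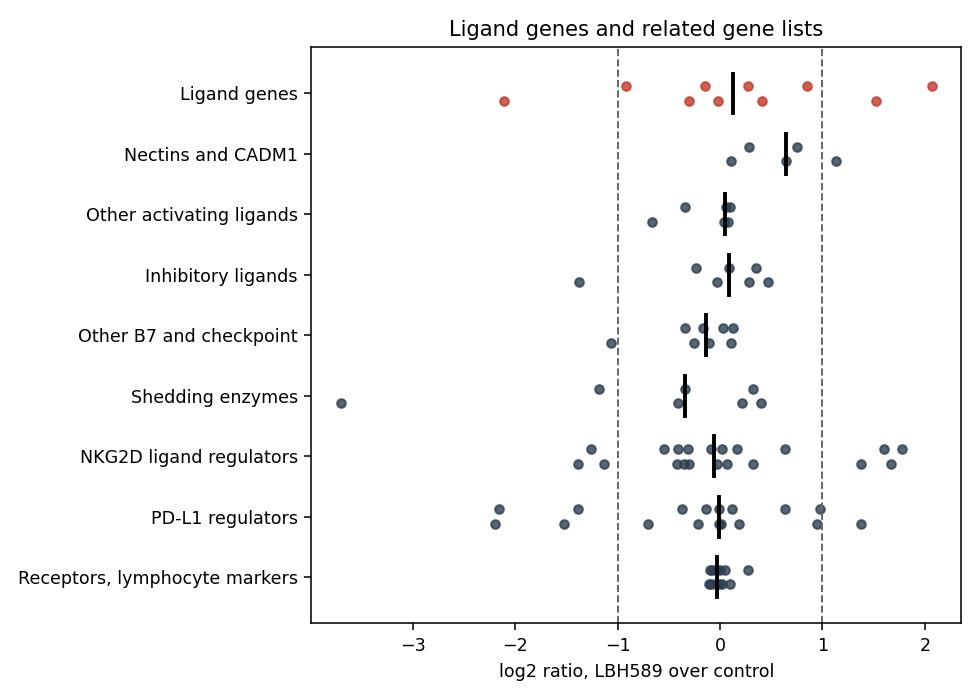
The log2 ratio of LBH589 over control for each detected gene of the ligand set (red) and of 8 related gene lists (dark blue); black bars are list medians and dashed lines mark 2-fold. The lowest point is MMP14 (-3.70) among the shedding enzymes, and lymphocyte genes lie between -0.11 and 0.27.

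The ligand ratios were recomputed under other ways of treating the intensities. PVR stayed 2-fold lower in all 10 of these, with log2 ratios between -2.11 and -1.29. MICA stayed 2-fold higher in 9 of 10, the exception being 50 added to each intensity (0.64). ULBP3 stayed 2-fold higher in 7 of 10, and was at 0.91 with 16 added, 0.43 with 50 added and 0.67 with intensities below 16 raised to 16. No other ligand gene passed 2-fold in any of them. These tallies include settings that could not move a ratio. PVR, MICA and ULBP3 were above background on both arrays. Their ratios thus stayed the same under the detection settings, a floor at background and a second deposited copy of the values. A floor of 16 also left PVR and MICA unchanged. PVR and ULBP3 have 1 probe set each, so the median over probe sets left them unchanged too.

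**Figure D5:**
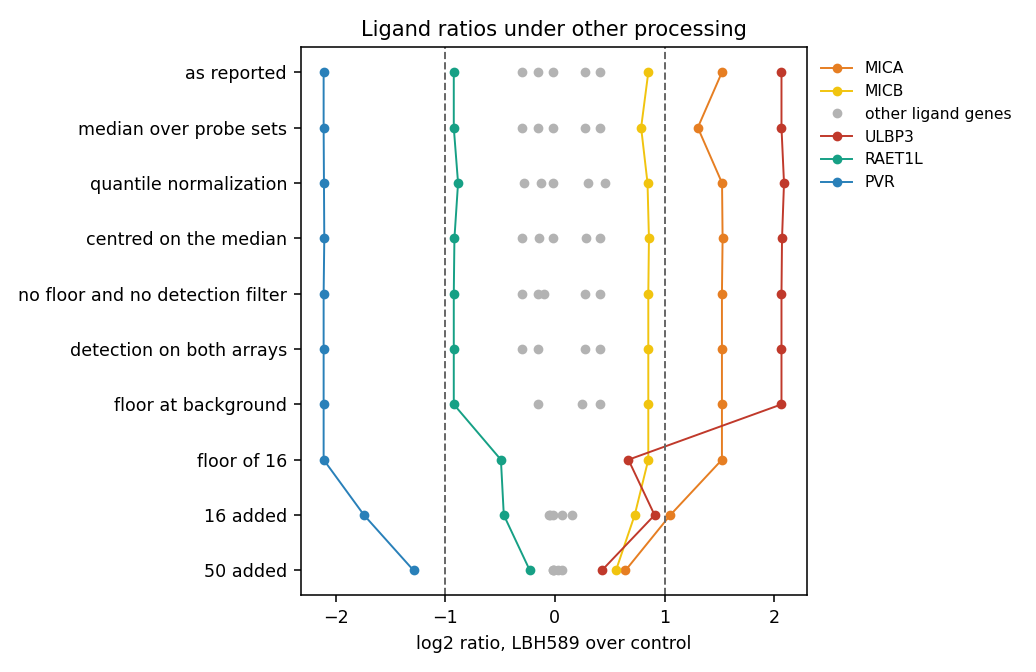
The log2 ratio of LBH589 over control of each ligand gene (horizontal axis) as reported and under 9 other treatments of the intensities (rows), leaving out the second copy of the deposited values, which gave the same numbers; dashed lines mark 2-fold. PVR stays below -1 throughout, MICA drops under 1 with 50 added, and ULBP3 drops under 1 with 16 or 50 added and with a floor of 16.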

How the data were processed

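Total RNA of AGS cells was labelled with biotin, and the deposited table holds linear intensities that the authors summarised per gene by RMA, per the file headers. MAS5 is named in the submitters' processing notes, so the method is uncertain. The authors also deposited a fold, LBH589 over control, which matched the ratio recomputed from the intensities in every row (relative tolerance 1e-06). A second deposited copy of the intensities was identical in every row. For the array design, software versions and genome build, the sources used here give nothing. With 1 array per condition, the number of arrays limits the precision and no test was run.

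Probe sets that named no gene (11234 of 33297) or listed several entries (199) were left out, which kept 21864. Symbols were updated through RefSeq (GRCh38.p14), by accession (18258), symbol (1111) or older symbol (1037), and 1458 kept the listed name. A gene with several probe sets was represented by the one that was brightest on average. The floor was 2.95, percentile 20 of all intensities: lower values were set to it, and genes under it on both arrays were not counted. Where the dimmer array was below background, a fold is given as at least the brighter intensity over background. Counting was tested on simulated data. The planted changes exceeded 2-fold and lay in brighter probe sets only, so calls on dim genes were not tested. Named are all 10 ligand genes, list members and neighbours past 2-fold, or the furthest from 0, and a few other list members as background to a role. A list gene is not reported here. The members, lists and tests were chosen with earlier results of these data known. Promoter windows were aligned end to end with Biopython 1.88. The other work used Python 3.11.15, numpy 2.4.6, pandas 2.3.3 and matplotlib 3.10.9.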

Additional observations from a re-analysis of the deposited data

How the results depend on the processing

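No paired analysis was possible because each condition had 1 array. As reported, 2 ligand genes were higher and 1 was lower. The number higher was 1 with 16 added, 0 with 50 added, 1 at a size of 3-fold and 1 with a floor of 16, the last chosen after the data were seen, and 3 at a size of 1.5-fold, where MICB joined MICA and ULBP3. The number lower was 2 at a size of 1.5-fold, where RAET1L joined PVR, and 1 under every other alternative run. Of all genes, 919 higher and 912 lower became 360 and 384 with 16 added, 134 and 146 with 50 added, 2187 and 1977 at 1.5-fold and 270 and 326 at 3-fold. The median of the ligand genes, 0.13, was 0.33 with a floor at background, which left 8 of them, and 0.67 with a floor of 16, which left 5. It was 0.28 with detection on both arrays (9 genes), and with all 10 kept 0.086 without a floor, 0.023 with 16 added and 0.0090 with 50 added. Of 18 list and neighbour genes past 2-fold, all passed under the normalization, probe set and detection alternatives and with a floor at background. Several of these settings could not move a gene that has 1 probe set and lies above background on both arrays. With 16 added 10 passed, and CD276, CEACAM1, CHEK1, CMTM4, IGF2BP3, MTHFD1L, NECTIN3 and PLEKHG1 did not; with a floor of 16 it was 15 of 17, without NECTIN3 and PLEKHG1, and with 50 added 6 passed (ADAM9, HDAC3, HSPA1A, HSPA1B, MMP14 and STAT3). None reversed. At 3-fold the lists held HSPA1A, HSPA1B and HDAC3 higher and MMP14, NFKB1 and IFNGR2 lower, and at 1.5-fold 3 nectin family genes and 4 PD-L1 factors were higher, where 1 of each is reported. Values near background limit ULBP1, RAET1E, ULBP2, CD274 and the control value of ULBP3.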
